A study of Macaca mulatta with 12 samples.

Results

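The genes described here had nearly the same mean level in fetal and newborn macaque cortex and a lower mean level in juvenile cortex. They were chosen from the deposited values as follows. For each gene, F was the mean of the 6 fetal animals, N the mean of the animals of 1 and 24 days, and J the mean of the animals of 182, 353, 479 and 831 days. Among the 4855 genes whose N and F differed by less than 0.3, the 100 with the most negative J minus N were taken, out of 8785 genes measured in all. All differences between these 3 groups were therefore fixed by the choice. They are given as descriptions, without a test.

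The tissue was superior frontal gyrus, a prefrontal area, taken after the sudden death of 12 male rhesus macaques, with 1 array per animal. The labels name no genotype and no treatment. The 6 fetal animals were at 72, 57, 53, 42, 35 and 30 days before birth, the 2 newborn animals were 1 and 24 days old, and the 4 juvenile animals were 182, 353, 479 and 831 days old. The series text counts all 6 postnatal animals as newborn. Biotin-labelled cRNA was hybridised to the Affymetrix Human Gene 1.0 ST array, whose probes were designed for human transcripts, so levels of different genes are not compared here. Values are on the deposited log scale. Its base is read as 2, which none of the sources states, and each fold given depends on this. With 12 arrays, their number limits the precision. In bulk tissue, fewer cells of a type and less RNA per cell cannot be told apart.

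Around birth the primate prefrontal cortex has most of its neurons in place, while astrocytes mature, myelin forms and synapses are added over the following months and years. The extracellular matrix of the young brain is rich in tenascin-C, neurocan and hyaluronan-binding link proteins, and its makeup shifts as perineuronal nets form. Secreted growth factors, neuropeptides, guidance cues and cadherins pattern the young cortex, and many of them are also used by the mature brain.

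Array medians lay between 3.98 and 4.38, and the array of 831 days had the lowest median of the juvenile arrays (4.02) while that of 479 days had the highest of all (4.38). Among 7 measured transcription factors of neocortical identity, MEF2C, NEUROD6, TBR1, BCL11A, LHX2 and NEUROD2 lay above the 20th percentile of every array. EMX2 lay under it in all 6 fetal and both newborn animals and above it in every juvenile. Of 8 measured markers of other brain regions, GBX2 and TCF7L2 lay under it in all 12 animals and DRD1 in 9 of them. CBLN1 lay above it in all 12 animals, RGS9 and TAC1 in 11, PPP1R1B in 8 and ZIC2 in 7, so this list was not absent. The labels name no array batches.

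Taken by group, the members had a median level of 4.45 in fetal, 4.28 in newborn and 3.53 in juvenile cortex, where the medians over all genes were 4.12, 4.23 and 4.21. Their J minus N ran from -1.90 (GRP) to -0.57 (CCDC167), with a median of -0.69 against -0.01 over all genes. 14 members were lower by at least 1 log2 unit, and 43 of all genes were. Just inside the limit lay BRF1 (-0.58), SGCZ (-0.57) and CCDC167, and just outside it MYB (-0.57), HECTD3 (-0.57) and CAD (-0.56). ARHGAP15, HECW1-IT1 and MPPED1 had a low enough J minus N (-0.65, -0.68 and -0.59) but missed the limit on N minus F, at -0.30, 0.30 and 0.31. The choice set no condition on single animals. All 4 juvenile values lay below both newborn values in 72 of the 100 members, where 7.9% of all genes had this order. All 4 lay below all 6 fetal values in 50 members, against 9.33% of all genes. Both newborn values lay inside the fetal range in 60 members, against 34.7% of all genes. The choice favoured each of these orders, so nothing is read from the counts.

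**Figure D1:**
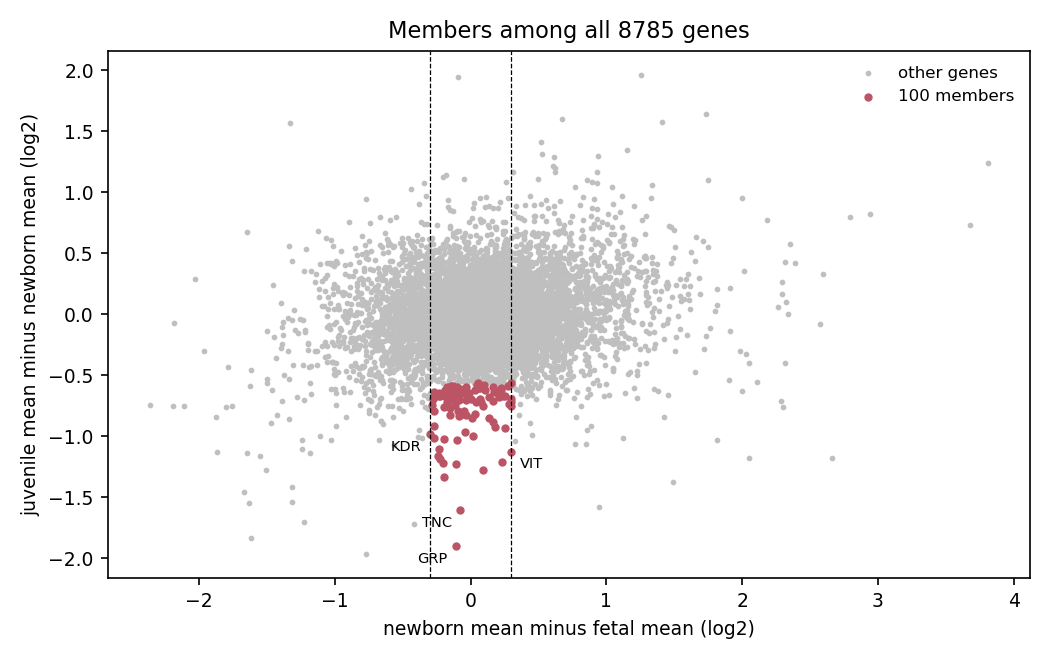
Each point is 1 of 8785 genes, with the newborn minus fetal mean on the x axis and the juvenile minus newborn mean on the y axis, both in log2 units. The 100 members (red) fill the bottom of the band between the dashed lines at -0.3 and 0.3, with GRP at -1.90 and TNC at -1.61 as the lowest.

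The juvenile animals were not alike. Relative to each gene's newborn mean, the members' median was -0.48 at 182 days, -0.75 at 353 days, -0.57 at 479 days and -1.08 at 831 days. The same medians over all genes were 0.02, -0.04, 0.16 and -0.17, so the arrays of 479 and 831 days were shifted as a whole in opposite directions. With each array centred on its median, the members' values became -0.51, -0.71, -0.75 and -0.91. At 182 days, 91 members were already below both newborns (25.8% of all genes were). At 831 days, 98 members were below both newborns (49.3% of all genes). The animal of 831 days had the lowest of all 12 values in 67 members, against 23.2% of all genes, and in 53 members, against 13.5%, after centring.

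**Figure D2:**
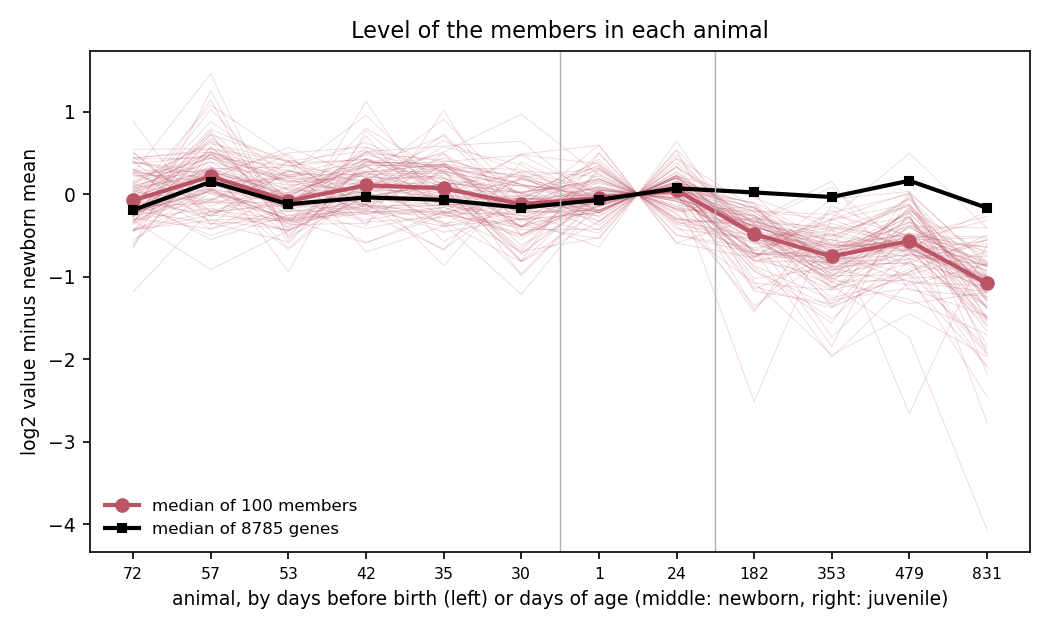
Each thin line is 1 member across the 12 animals in order of age, as its value minus its newborn mean in log2 units, and the thick lines are the medians of the 100 members (red) and of all genes (black). The members' median stays between -0.12 and 0.22 in the fetal animals and lies at -0.48, -0.75, -0.57 and -1.08 in the juvenile animals.

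Leaving out the animal of 831 days reduced J minus N by more than 1.5 times in 18 members, among them GRP, GULP1, IL1RAPL2, NWD2, SSTR2, CNTN6, PCSK6 and SULF1. Without it the members' median was -0.58, and 73 members were still lower by at least 0.5. Leaving out the animal of 182 days did so for KCNK9 and ZNF250, that of 353 days for NIPSNAP3B and NIPA1, and that of 479 days for GLRX5. Without the animal of 831 days GRP, GULP1, NWD2 and SSTR2 were still lower, at -1.18, -0.81, -0.67 and -0.57, while CNTN6 was at -0.16 and OLFM4 at -0.26.

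By number of members, matrix proteins and their receptors came first of 34 gene lists, which were chosen with earlier results of these data known. Of 66 measured genes of this list 7 were members, where 100 of all 8785 genes were, and no test was made of this count. The 7 were TNC, HAPLN1, NCAN, COL1A1, COL1A2, COL3A1 and COL4A1. In this list, 12 of the 66 genes (18.2%) had all juvenile values below both newborn values and 1 had all above. Of all genes, 7.9% and 7.47% did. The list's median J minus N was -0.18. Only 4 of 9630 rows were called between juvenile and newborn cortex by limma (0.0415%), 2 of them lower (0.0208%), and TNC was the only member called on the deposited values. TNC was called in 8 of 19 other settings and GNB4 in 7 of them. Their choice used that contrast, so nothing is read from the calls.

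TNC encodes tenascin-C, a large matrix glycoprotein made by radial glia and young astrocytes. In the fetal animals TNC ran from 4.84 to 5.54 with a median of 5.05, it was at 4.94 and 5.15 in the newborns, and it was at 3.98, 3.10, 3.60 and 3.08 in the juvenile animals of 182, 353, 479 and 831 days. The fetal and newborn values overlapped, every juvenile value lay well below them, and the mean was 3.04-fold lower than in the newborns. Fetal values are given from here on as the lowest, the median and the highest, followed by the 2 newborn values and the 4 juvenile values in order of age. HAPLN1 encodes a link protein that fastens proteoglycans to hyaluronan. HAPLN1 values were 3.47, 3.86 and 4.29 in the fetal animals, 3.77 and 3.68 in the newborns and 3.04, 1.75, 2.66 and 2.54 in the juvenile animals. No juvenile value reached the fetal range, and 3 of the 4 lay under the 20th percentile of their array, where a signal is close to the dim end. With values raised to that percentile, its J minus N was -0.73 in place of -1.23. NCAN encodes neurocan, a chondroitin sulphate proteoglycan of the young brain matrix. It was at 5.85, 6.02 and 6.28 in the fetal animals, 5.85 and 6.71 in the newborns and 5.80, 5.52, 5.95 and 5.18 in the juveniles. The 24-day animal was above all others, and the juvenile animal of 479 days was above the newborn of 1 day, so these groups overlapped.

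The collagens of the list were split at the newborn stage. COL1A1 and COL1A2 encode the chains of type I collagen, COL3A1 that of type III collagen, and COL4A1 a chain of the type IV collagen of vessel basement membranes. COL1A1 was at 2.98, 3.19 and 3.63 in the fetal animals, at 2.82 and 3.90 at 1 and 24 days, and at 2.88, 2.73, 2.77 and 2.34 in the juveniles. The COL1A2 values were 3.55, 3.79 and 4.89 in the fetal animals, 3.37 and 4.65 in the newborns and 3.27, 2.85, 3.06 and 3.46 in the juveniles. COL3A1 stood at 2.78, 2.91 and 3.58, then at 2.59 and 3.54, then at 2.52, 2.32, 2.56 and 2.26. In all 3 genes the animal of 1 day lay below every fetal animal, while the animal of 24 days lay near the top of the fetal range or above it. Their near-equal N and F are thus means of a low and a high newborn value. COL4A1 had the same split, with 3.22, 3.55 and 3.80 in the fetal animals, 3.04 and 3.71 in the newborns and 3.01, 2.54, 2.53 and 2.32 in the juveniles. In COL1A1, COL3A1 and COL4A1 all 4 juvenile values were in the dimmest 20% of their array.

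Fibroblast and mural cell markers were set beside these collagens. Of 25 listed markers of pericytes, smooth muscle and fibroblasts 11 were measured, and 3 of the 11 are these collagens. Their summed level, as log2 of the summed linear values, was 7.80 to 8.09 in fetal, 8.04 to 8.49 in newborn and 7.98 to 8.44 in juvenile animals. The median J minus N of the 11 was -0.37, with PDGFRA at -0.56, ABCC9 at -0.37 and FBLN1 at -0.17. DCN and LUM, proteoglycans of fibroblasts, had juvenile minus newborn differences of 0.15 and 0.11, and PDGFRB and RGS5, both of pericytes, of -0.10 and 0.35. ACTA2, an actin of smooth muscle, was lower in the juveniles by a difference of -1.06 after a newborn minus fetal difference of 0.85. The part of these cells in the collagen values was not tested.

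THBS1, POSTN and LAMA4 had the most negative J minus N of the matrix genes that were no members. THBS1 (thrombospondin 1, a secreted glycoprotein that acts on synapses) differed by -1.71 and POSTN (periostin) by -1.55, but both were already lower in newborn than in fetal cortex, with differences of -1.23 and -1.63. Every juvenile value of POSTN, and its newborn value at 24 days, lay in the dimmest 20% of its array, which limits the size of its J minus N. LAMA4, a laminin chain of vessel walls, differed by -0.55 and missed the limit on N minus F at -0.30.

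**Figure D3:**
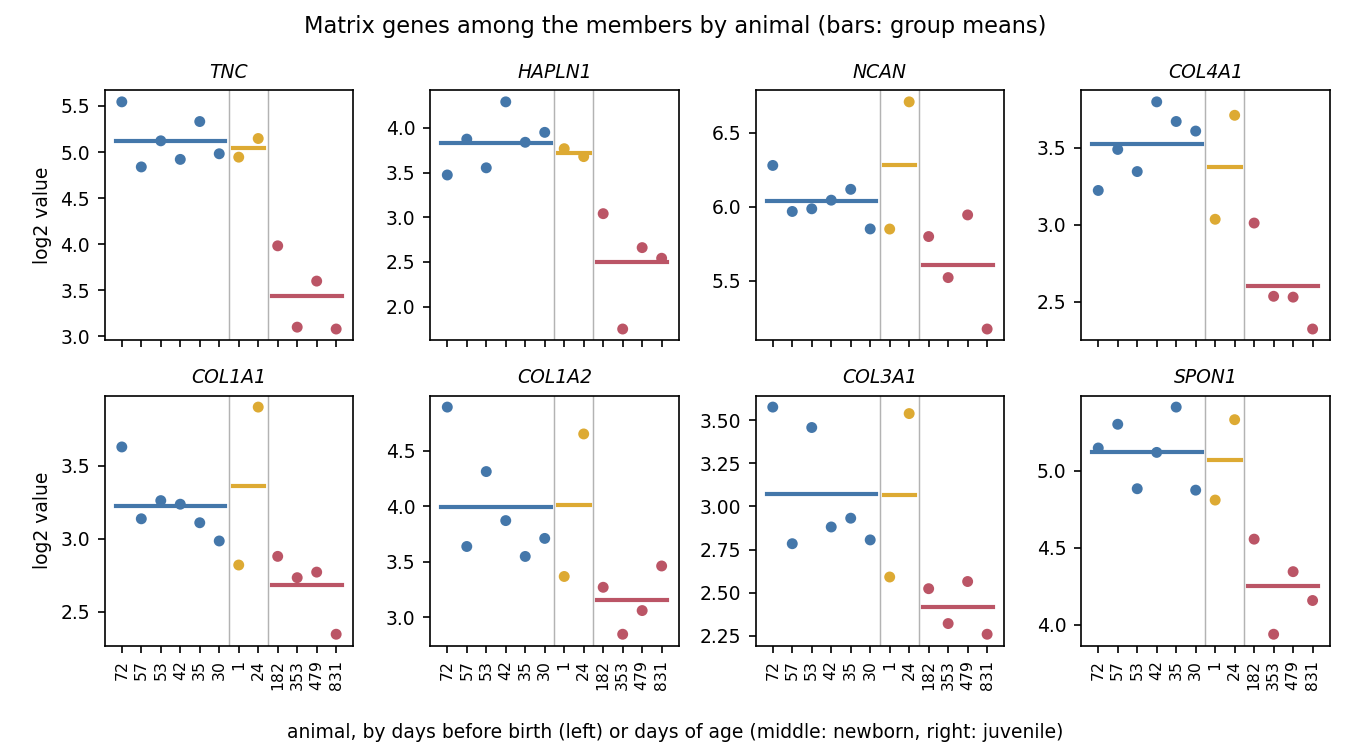
Each panel shows 1 matrix gene, with 1 point per animal in order of age, the deposited log2 value on the y axis and a bar at each group mean. TNC and HAPLN1 have flat fetal and newborn values and lower juvenile values, while the collagens have a low newborn at 1 day and a high one at 24 days.

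Further matrix members were picked out after their values were seen. VIT (vitrin, a secreted matrix protein) was at 5.02, 5.40 and 5.70 in the fetal animals, 5.41 and 5.96 in the newborns and 5.23, 4.61, 4.41 and 3.98 in the juveniles. The newborn of 24 days exceeded every fetal value, and 3 of 4 juveniles lay below them all. SPON1 encodes F-spondin, a secreted protein that guides axons. Its values were 4.87, 5.13 and 5.41, then 4.81 and 5.33, then 4.56, 3.94, 4.34 and 4.16, with the juveniles below all others. SULF1, which trims sulphate from heparan sulphate, had a J minus N of -0.62 that rested largely on the animal of 831 days, where it was at 3.87 against 4.87 to 5.17 in the other juveniles.

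Among secreted signals, GRP had the most negative J minus N of all members. GRP encodes gastrin-releasing peptide, a neuropeptide used by some cortical neurons. In the fetal animals GRP ran from 5.06 to 6.94 with a median of 5.88, it was at 6.36 and 5.37 in the newborns and at 5.15, 4.76, 4.13 and 1.80 in the juveniles. The newborn of 24 days and the juvenile of 182 days lay close together, and the value at 831 days stood far under the rest. The J minus N was -1.90 (3.74-fold lower), or -1.18 without the animal of 831 days. IGF1 encodes insulin-like growth factor 1, which promotes growth of neurons and oligodendrocytes. IGF1 was at 4.74, 5.09 and 5.36 in the fetal animals, 5.25 and 4.52 in the newborns and 4.34, 3.87, 3.56 and 3.70 in the juveniles. All juveniles were below all fetal and newborn animals, while the newborn of 24 days was below the fetal range and closer to the juvenile of 182 days than to the newborn of 1 day. Its mean was 2.03-fold lower in juveniles than in newborns.

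Receptors and their transducers followed. KDR encodes the main VEGF receptor of endothelial cells. KDR ran from 4.12 to 4.62 with a median of 4.53 in the fetal animals, was at 4.14 and 4.15 in the newborns and was at 3.02, 2.76, 3.20 and 3.65 in the juveniles. The juveniles lay below all other animals, and the oldest was the highest of the 4. Its N minus F of -0.298 was just within the limit of 0.3, and KDR stayed a member in 13 of 20 other settings of the choice. Of the 31 listed endothelial markers 21 were measured, with KDR as the only member among them and a list median J minus N of -0.01. Their summed level was 7.62 to 8.11 in fetal, 8.01 to 8.45 in newborn and 8.05 to 8.41 in juvenile animals, so the newborn and juvenile ranges overlapped. FLT1, the other VEGF receptor of the list, differed by 0.20 between juvenile and newborn animals, PECAM1 by -0.31 and VWF by 0.33. The 21 markers ran from -0.98 (KDR) to 0.57 (SLCO1A2), with MFSD2A at -0.66, ABCB1 at -0.60 and CDH5 at -0.41. In this list 3 genes (14.3%) had all juveniles below both newborns and 1 had all above, against 7.9% and 7.47% of all genes. Of 41 measured growth factors and receptor tyrosine kinases, IGF1 and KDR were the members, and 8 (19.5%) had all juveniles below both newborns and 3 all above, where 7.9% and 7.47% of all genes did.

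GNB4 encodes a beta subunit of heterotrimeric G proteins, which relay signals from receptors. GNB4 was at 6.43, 6.78 and 6.99 in the fetal animals, 6.41 and 6.62 in the newborns and 5.65, 5.23, 5.38 and 5.04 in the juveniles. The 3 groups were tight, the juveniles were below all other animals, and the mean was 2.28-fold lower than in newborns. SSTR2, a receptor for somatostatin, had 5.68, 5.97 and 6.19 in the fetal animals, 6.01 and 6.25 in the newborns and 5.68, 5.14, 5.86 and 4.31 in the juveniles. The juvenile of 479 days lay inside the fetal range, that of 182 days at its lower edge and the other 2 below it. IL1RAPL2, a receptor of the interleukin-1 receptor family that is expressed in the brain, was at 4.22, 4.50 and 4.76, then 4.29 and 4.24, then 3.59, 3.49, 4.05 and 1.50. Here 1 value decided the size: without the animal of 831 days its J minus N was -0.56 in place of -1.11.

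**Figure D4:**
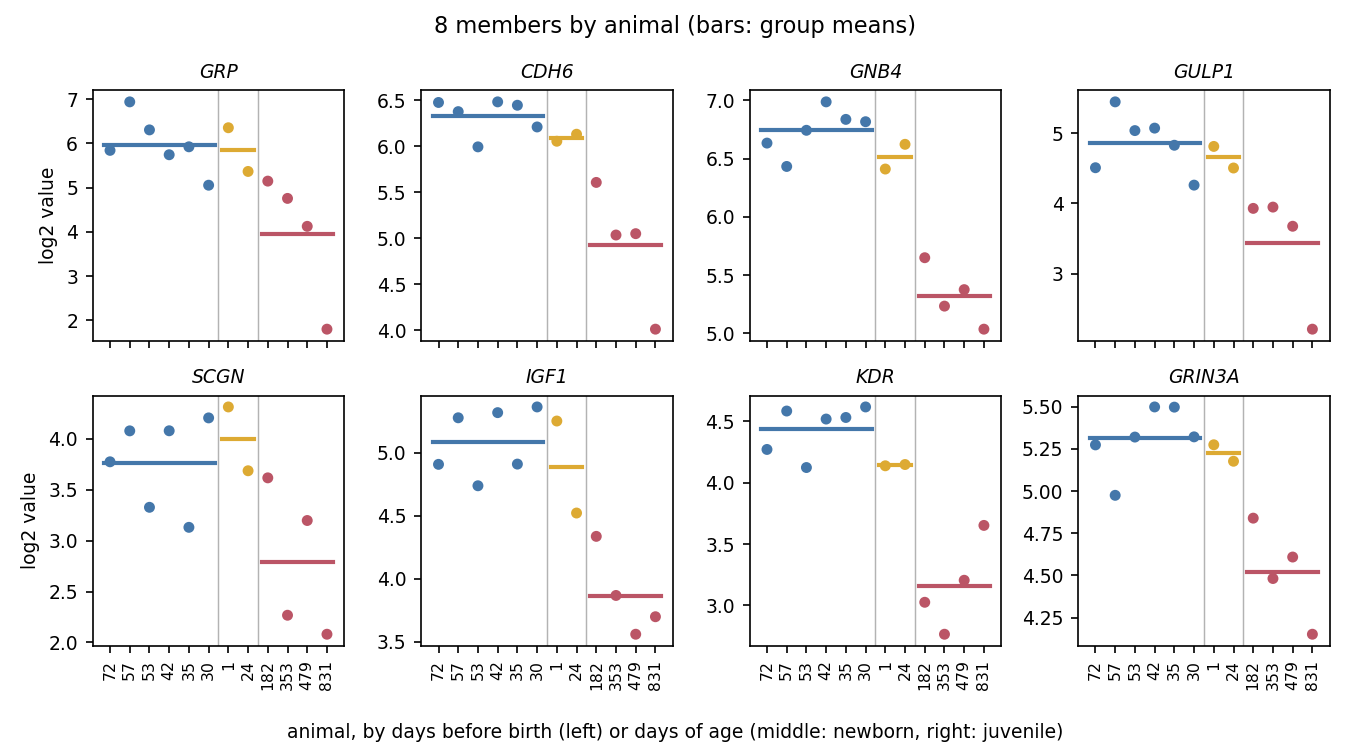
Each panel shows 1 member, with 1 point per animal in order of age, the deposited log2 value on the y axis and a bar at each group mean. GNB4 is level before and at birth and lower in all 4 juveniles, while GRP and GULP1 have their lowest value in the animal of 831 days.

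Cell adhesion and guidance genes gave 5 members. CDH6 encodes cadherin 6, an adhesion protein that marks borders between young brain regions. CDH6 values were 5.99, 6.41 and 6.48 in the fetal animals, 6.05 and 6.13 in the newborns and 5.61, 5.03, 5.05 and 4.01 in the juveniles. All juveniles were below all others, with the animal of 182 days nearest to the newborns and that of 831 days farthest from them. PCDH15 encodes a protocadherin of hair cells that is also enriched in oligodendrocyte precursors. It was at 4.01, 4.51 and 5.19 in the fetal animals, 4.46 and 3.99 in the newborns and 2.87, 3.47, 3.67 and 3.90 in the juveniles. Its lowest juvenile was the youngest and its highest the oldest, the opposite order to CDH6, and all 4 lay just below the newborn of 24 days or further down. 12 of 19 listed precursor markers were measured, with a summed level of 8.23 to 8.50 in fetal, 8.08 to 8.47 in newborn and 7.91 to 8.15 in juvenile animals. The J minus N of these markers had a median of -0.19 and ran from -0.74 (PCDH15) to 0.09 (GPR17). PDGFRA, their defining receptor, had the most negative difference after PCDH15, at -0.56. It was at 4.35 and 4.82 in the newborns and at 4.39, 4.13, 3.22 and 4.35 in the juveniles, so these groups overlapped. The part of these cells in the PCDH15 values was not tested. Of 59 measured adhesion genes, 12 (20.3%) had all juveniles below both newborns and 0 had all above, where 7.9% and 7.47% of all genes did.

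SEMA3C and SEMA6A encode semaphorins, secreted and membrane-bound cues that steer axons and migrating cells. SEMA6A was at 5.61, 5.76 and 6.10 in the fetal animals, 5.69 and 5.73 in the newborns and 4.90, 4.89, 5.05 and 5.50 in the juveniles. Every juvenile value was below every fetal and newborn value. SEMA3C was at 3.70, 4.26 and 5.09, then 4.09 and 4.29, then 3.37, 3.61, 4.12 and 3.12, and its juvenile of 479 days lay between the newborns. CNTN6 encodes contactin 6, an adhesion molecule of growing axons. It was at 4.17, 4.80 and 5.67 in the fetal animals, 5.12 and 5.20 in the newborns and 4.96, 4.85, 5.18 and 2.98 in the juveniles. Only the animal of 831 days was low, and without it the J minus N was -0.16. Of 73 measured axon guidance genes, 11 (15.1%) had all juveniles below both newborns and 1 all above, where 7.9% and 7.47% of all genes did. CXCL12, SRGAP1 and PLXNA1 differed by -0.76, -0.75 and -0.72 between juveniles and newborns but were no members, since they were already lower in newborn cortex.

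Channels, receptors and calcium-binding proteins of neurons formed a small group. GRIN3A encodes an NMDA receptor subunit that is abundant in young synapses and lowers their calcium flow. GRIN3A ran from 4.97 to 5.50 with a median of 5.32 in the fetal animals, was at 5.27 and 5.18 in the newborns and at 4.84, 4.48, 4.61 and 4.15 in the juveniles. All juveniles were below the fetal and newborn animals, by a mean of 1.63-fold against the newborns. It was the only member among 39 measured glutamate and GABA receptors and transporters. Of these 39, 8 (20.5%) had all juveniles below both newborns and 4 all above, where 7.9% and 7.47% of all genes did. KCNQ3, a subunit of the potassium channel that carries the M-current, was at 5.66, 6.03 and 6.19, then 5.76 and 6.41, then 5.87, 5.24, 5.79 and 4.98. The newborn of 1 day lay below the juveniles of 182 and 479 days, so these groups overlapped. KCNK9, a leak potassium channel, was at 2.87, 3.36 and 3.94, then 3.50 and 3.61, then 1.04, 3.27, 4.05 and 3.15. Here the animal of 182 days alone lay under the fetal range, that of 479 days was above it, and J minus N was -0.07 without the former. Of 65 measured channels, 4 (6.15%) had all juveniles below and 4 all above both newborns, near the 7.9% and 7.47% of all genes. SCGN encodes secretagogin, a calcium-binding protein of some interneurons and their precursors. It was at 3.13, 3.93 and 4.21 in the fetal animals, 4.31 and 3.69 in the newborns and 3.62, 2.27, 3.20 and 2.08 in the juveniles. The juvenile of 182 days was near the 24-day newborn, that of 479 days was still inside the fetal range and the other 2 lay below it. All SCGN juvenile values but that of 182 days lay under the 20th percentile of their array. With values raised to that percentile, its J minus N was -0.86 in place of -1.21. SLC24A3, a sodium-calcium exchanger dependent on potassium, was at 5.79, 6.08 and 6.48, then 6.19 and 6.39, then 5.84, 5.03, 5.28 and 5.29, and the juvenile of 182 days stayed inside the fetal range.

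Members with lipid and myelin roles showed separate patterns. TSPAN2 encodes a tetraspanin of oligodendrocytes. It was at 4.25, 4.48 and 5.46 in the fetal animals, 4.43 and 4.43 in the newborns and 3.27, 3.70, 3.37 and 3.32 in the juveniles. The juveniles were all below the other animals, whereas the 11 measured myelin markers had a median J minus N of 0.46, and a summed level of 7.46 to 8.69 in newborns and 7.97 to 9.23 in juveniles. TSPAN2 was thus lower in juveniles while the median marker of its list was higher. ELOVL2 elongates long polyunsaturated fatty acids. ELOVL2 was at 5.86, 6.08 and 6.42, then 6.29 and 5.60, then 5.45, 5.06, 5.12 and 5.39, with the juveniles below all others and the newborn of 24 days below the fetal range. ACSL4, which activates arachidonic acid, was at 6.82, 7.12 and 7.18, then 6.81 and 6.85, then 6.44, 6.15, 6.23 and 5.84, with no overlap of the juveniles with the rest.

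Among genes of cell division, TOP2A was the only member of 42 measured cell cycle genes. It encodes topoisomerase II alpha, which untangles DNA in dividing cells. TOP2A was at 1.93, 2.45 and 2.83 in the fetal animals, 2.62 and 1.78 in the newborns and 1.65, 1.76, 1.50 and 1.02 in the juveniles. All 12 values were in the dimmest 20% of their array, and with values raised to that percentile its J minus N was -0.01. SHISAL2B had the same value of -0.01 with that floor, after 2.04, 2.49 and 4.02, then 2.72 and 2.80, then 1.83, 1.40, 1.80 and 0.90 without it. In all, 49 members had at least 1 juvenile value under the 20th percentile, against 26.5% of all genes, and in 27 members J minus N was closer to 0 by 0.3 or more with the floor.

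Rows of small nucleolar RNAs and of nucleolar proteins were also among the members, picked out after their values were seen. SNORD60 is a small nucleolar RNA that guides methylation of ribosomal RNA. SNORD60 was at 4.77, 5.85 and 6.01 in the fetal animals, 4.94 and 5.99 in the newborns and 4.29, 4.14, 4.56 and 3.53 in the juveniles. Its newborn of 1 day lay near the lowest fetal animal, and all juveniles lay below both. URB2, a protein of ribosome assembly, was at 2.99, 3.90 and 4.83, then 3.94 and 3.97, then 3.03, 2.39, 3.73 and 2.66, and the juvenile of 479 days lay close to the newborns. TAF1D, a subunit of the factor that starts transcription of ribosomal RNA, was at 3.78, 4.19 and 4.46, then 4.54 and 3.36, then 3.18, 3.76, 3.20 and 3.10. Of the newborns only that of 1 day lay above all juveniles. GULP1, an adaptor of phagocytosis, was at 4.26, 4.93 and 5.45, then 4.81 and 4.51, then 3.93, 3.95, 3.67 and 2.21, with its juvenile of 831 days far below the others. GULP1 and COL3A1 are neighbours with 0 protein-coding genes between them in the RefSeq annotation of T2T-MMU8v2.0, but their newborn values ran in opposite directions from 1 to 24 days.

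Membership varied among lists. 20 members were in one of 34 gene lists and 80 in none, and 21 lists held no member. Lists with no member included the 44 measured presynaptic genes, the 32 postsynaptic density genes, the 91 chromatin regulators and the 26 immature neuron genes. The immature neuron genes had a median N minus F of -0.42 and a median J minus N of -0.26, so they were lower already in newborn cortex. Read against the share of all genes with all juveniles below both newborns, 7.9%, the shares were highest in lists that held no member, at 38.5% for immature neurons (10 of 26) and 33.3% for immediate early genes (6 of 18). They were 20.5% for glutamate and GABA receptors, 20.3% for adhesion, 19.5% for growth factors and their receptors, 18.2% for matrix, 15.1% for axon guidance, 6.15% for channels and 2.27% for presynaptic genes. No test was made of these shares.

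3 further comparisons did not use the group means: the slope over the 6 fetal ages, the difference of 24 days from 1 day, and the slope over the 4 juvenile ages, all fitted by limma on 9630 rows with 1 shared estimate of spread. They use the same arrays as the choice, so where 1 array was low, as at 831 days, it moved both the juvenile mean and the slope. In the fetal comparison 0 rows were called (0.0%) and 573 had an unadjusted p under 0.05. The members' median fetal slope was -0.01 per 10 days towards birth, 45 were higher and 55 lower towards birth, and by unadjusted p 2 were higher (3.18% of all rows) and 6 lower (2.77%). Among the positive slopes CNBD2 had the smallest p, with 0.32 ± 0.09 (SE) per 10 days (limma, adjusted p = 0.756). PLPP4, a lipid phosphatase, had -0.20 ± 0.06 (limma, adjusted p = 0.756), with 6.20 at 72 days and 5.32 at 30 days before birth. DGKD, a diacylglycerol kinase, had 0.23 ± 0.07 (limma, adjusted p = 0.757) and SCARNA5, a small Cajal body RNA, -0.21 ± 0.07 (limma, adjusted p = 0.763).

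Between 1 and 24 days 0 rows were called (0.0%) and 806 had an unadjusted p under 0.05. Each age had 1 animal, and the spread came from the other groups. 62 members were higher at 24 days and 38 lower, with a median of 0.10 against 0.14 over all genes, which became -0.05 after quantile normalization and -0.09 after centring. By unadjusted p 8 members were higher (6.72% of all rows) and 3 lower (1.65%), against 4 higher and 11 lower after either scaling. Of all 9630 rows, 1116 passed in either direction after quantile normalization and 1076 after centring. COL1A1 differed by 1.09 ± 0.29 (SE) and COL1A2 by 1.28 ± 0.43 (limma, adjusted p = 0.533 for both), the members with the smallest p among those higher at 24 days. TAF1D differed by -1.19 ± 0.36 (limma, adjusted p = 0.533) and IQGAP2, a scaffold protein of the actin skeleton, by -0.71 ± 0.30 (limma, adjusted p = 0.585).

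In the juvenile comparison 0 rows were called (0.0%) and 570 had an unadjusted p under 0.05. The members' median slope was -0.26 per doubling of age, against -0.06 over all genes, and 86 members had a negative slope, where 65.3% of all genes did. By unadjusted p 25 members were lower with age (4.16% of all rows) and 2 higher (1.75%). Without the animal of 831 days the median was -0.10 against 0.06 over all genes, and 62 slopes were negative (38.0% of all genes). By unadjusted p 5 members were then lower and 4 higher, where 381 of all 9630 rows passed in either direction. GRP had a slope of -1.49 ± 0.32 (SE) per doubling, NWD2, a gene with NACHT and WD repeat domains, -0.78 ± 0.16 (limma, adjusted p = 0.350 for both), and CDH6 -0.69 ± 0.15 (limma, adjusted p = 0.394). NWD2 was at 5.37, 5.44 and 5.75 in the fetal animals, 5.60 and 5.23 in the newborns and 5.16, 4.45, 4.64 and 3.32 in the juveniles, with the oldest far below the rest. KCNK9 had 1.04 ± 0.34 (limma, adjusted p = 0.704) and PCDH15 0.47 ± 0.19 (limma, adjusted p = 0.810), both with their lowest juvenile value at 182 days.

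**Figure D5:**
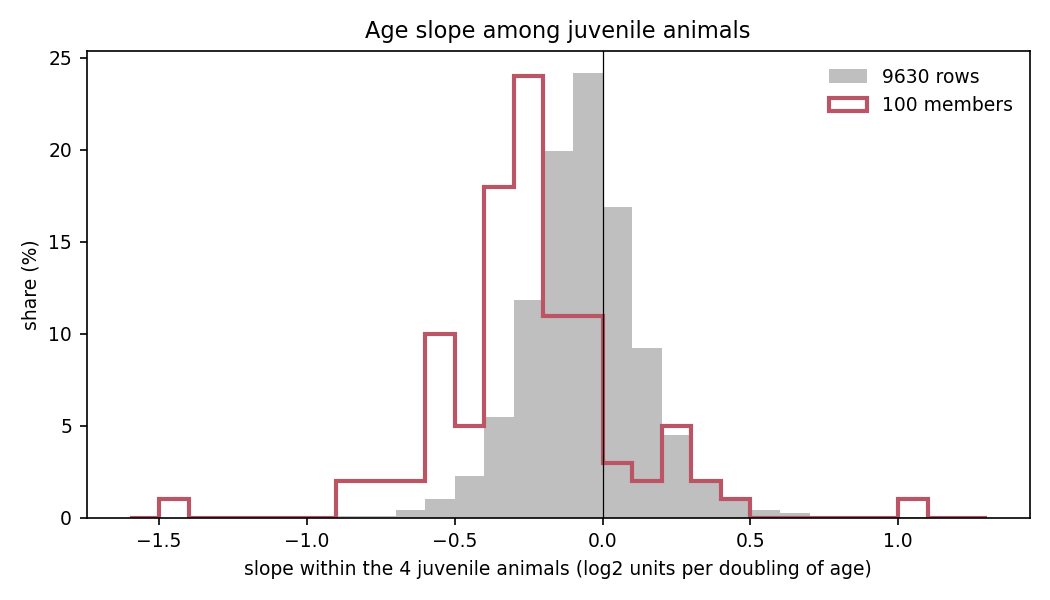
The histogram shows the share (%) of the 100 members (red outline) and of all 9630 rows (grey) by slope within the 4 juvenile animals, in log2 units per doubling of age. The members' median is -0.26, with GRP at -1.49 and KCNK9 at 1.04 at the ends.

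The remaining members, grouped here after their values were seen, had J minus N between -0.97 and -0.57. Adhesion and polarity genes among them were SDK1 (-0.83), a synaptic adhesion protein of the immunoglobulin family, FJX1 (-0.59), LNX2 (-0.70) and PDZRN3 (-0.69), the last 2 ubiquitin ligases with PDZ domains. PTGER3, a prostaglandin receptor, differed by -0.82, SOCS2, which dampens growth hormone signalling, by -0.61, and NKIRAS2, an inhibitor of NF-kappaB signalling, by -0.97. SYT3, a calcium sensor of vesicle fusion, differed by -0.61, SHISA6, an auxiliary subunit of AMPA receptors, by -0.59, and the taurine transporter SLC6A6 by -0.72. The sialyltransferases ST6GAL2 and ST3GAL1 differed by -0.69 and -0.60, and GALNT1, which starts mucin-type glycosylation, by -0.61. WEE1, a kinase that holds back mitosis, differed by -0.66, DONSON, a replication factor, by -0.62, and TRIP13, a checkpoint ATPase, by -0.83. In SDK1, PTGER3 and TRIP13 all 4 juvenile values were in the dimmest 20% of their array. With values raised to that percentile, J minus N was -0.01 in each of these genes. The row annotated to MIR9-1 differed by -0.84, and no value for a mature miRNA is given. Under 20 other settings of the choice, 10 genes stayed members throughout: TNC, HAPLN1, NWD2, URB2, NKIRAS2, SLC24A3, SSTR2, TP53I11, TXNDC17 and PLPP4.

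A set chosen by the same rule with the sign turned served as a comparison. Its 100 genes had a median J minus N of 0.64, and all juveniles lay above both newborns in 70 of them (7.47% of all genes). Its median juvenile slope was 0.07 against -0.26 for the members, a difference that was not tested.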

How the data were processed

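Expression was measured in 12 macaques, 6 fetal, 2 newborn and 4 juvenile, with 1 array each. The log2 values were deposited by the authors as 1 table of 9630 rows. The log base is inferred from their span, -0.86 to 10.6. Neither the background correction and normalization nor the choice of rows is given in the sources used here. Genome build hg 18 is named, per the submitters' processing notes. The array medians were unequal, so an array's overall shift moves every gene. Gene names came from GEO's platform annotation: 8848 rows had 1 symbol, 229 several and 553 none. For 52 genes with several rows the row of highest mean was used.

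The members and gene lists were chosen with earlier results of these data known. Rows were fitted with limma 3.58.1 in R 4.3.3 (lmFit, eBayes), with Benjamini-Hochberg adjustment over 9630 rows and a threshold of 0.05, two-sided. Juvenile and newborn animals were compared in a fit with 1 mean per group and 9 residual degrees of freedom. The slopes and the newborn difference came from a second fit, with group means, age slopes within the fetal and juvenile groups and the difference between the newborns, and 6 residual degrees of freedom. Both were tested on simulated data. Each label describes 1 animal, and replicate numbers follow accession order.

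Values per animal are given for the 15 members with the most negative J minus N, up to 2 members per list and the 2 members of smallest p per direction in each slope or newborn test. Other members given per animal were picked out after their values were seen. Other settings tried were centring of arrays, quantile normalization, no dim rows, a floor, other limits of the choice, trend and robust eBayes, array weights, age in days, and each array left out.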

Additional observations from a re-analysis of the deposited data

Results flagged for a closer look

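4 groups among the 64 tested for genes with values per animal held a sample far from the others, by Dixon's criterion, and 7 of 200 did over all members. Chance gives about 1 in 20. SNORD60 was at 4.77 in the fetus of 30 days before birth, against 5.59 to 6.01 in the other fetal animals. GULP1 was at 2.21 at 831 days, while the other juveniles reached up to 3.95. CNTN6 was at 2.98 at 831 days, against 4.85 to 5.18 in the other juveniles. TAF1D was at 3.76 at 353 days, against 3.10 to 3.20. The animal of 831 days was the distant one in 2 of the 4, and its array had the lowest median of the juvenile arrays, 4.02.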

How the results depend on the processing

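Of the 100 members, 69 to 100 stayed members under other scalings, filters and limits, and 49 to 92 when 1 animal was left out, with 49 without the newborn of 1 day and 49 without that of 24 days. The call count between juveniles and newborns was 4 rows. It was 2 after centring, 7 without dim rows, 13 with the floor, 10 with trend and robust, 0 with array weights, 7 in the fit with slopes, and 0 to 8 with 1 animal left out. TNC's J minus N stayed between -1.79 and -1.49. In the settings that kept both newborns, its adjusted p (limma) ran from 0.00559 to 0.179. It was over 0.05 after centring (0.0613) and with array weights (0.164). It was also over 0.05 without any 1 of the juveniles of 353, 479 and 831 days. The same held without any 1 of the fetuses of 30, 35, 42 and 53 days before birth. GNB4 was called beside TNC after quantile normalization, with the floor, without dim rows, with trend and robust, in the fit with slopes, and without the fetus of 57 days or the juvenile of 182 days. For the juvenile slope, 1 row was called after quantile normalization, 1 with age in days and 0 to 1 with 1 animal left out. For the newborn difference, 1 row was called with trend and robust. No member was among the calls in either. The fetal slope had 0 calls by limma in every setting run, with 573 rows at an unadjusted p under 0.05 on the deposited values. All juveniles lay below both newborns in 74 to 90 members under the other scalings or with 1 postnatal animal left out, where 8.79% to 28.6% of all genes did. The highest count, 90, went with 28.6%, without the newborn of 1 day. No paired analysis was possible because each array came from a different animal. The dim values limit 49 members, and the 4 juvenile animals limit any age trend.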

Other observations

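Of the 43 genes lower by at least 1 log2 unit in juvenile than in newborn cortex, 14 were members. Among the others, DPYSL5, which shapes growing axons, had a newborn minus fetal difference of -1.62 and a juvenile minus newborn difference of -1.83. The activity-dependent transcription factors NPAS4 and FOSB were instead higher in newborn than in fetal cortex, by 2.66 and 1.81, and then lower in juveniles, with differences of -1.18 and -1.03. In NPAS4 every postnatal value lay above every fetal value, from 2.91 to 5.29. Every fetal value of both genes was in the dimmest 20% of its array. For FOSB this also held for every juvenile value and for the newborn of 24 days, which limits the size of its differences.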
